A study of Rattus norvegicus with 47 samples.

Results

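Interferon-stimulated genes were followed in RNA from the lungs and blood of rats that had inhaled crystalline silica. The group was a list of 35 gene names, matched to the gene names of 4 deposited count tables that each listed 30045 genes. Of these names, 34 matched exactly and Xaf1 matched when letter case was ignored, so all 35 were found. All 35 also passed the filter on low counts in each of the 4 tables.

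The animals were healthy male Fischer 344 rats, an inbred strain, whose age the labels do not give. Silica rats had breathed crystalline silica (the fine dust Min-U-Sil 5) by whole-body inhalation at 15 mg/m3 for 6 hours a day over 5 days, and air rats had breathed filtered air. Lung tissue and whole blood were taken 1 day or 6 months after the exposure ended, and globin RNA was depleted from the blood RNA. Silica lung at 1 day, air lung at 1 day, silica lung at 6 months, and silica and air blood at both times were represented by 6 libraries each, and air lung at 6 months by 5 libraries, which made 47 libraries in all. Each title carries an animal number from 37 upward, and libraries are named by it here. The labels give no chamber, cage or time of killing, so treatment and chamber cannot be told apart.

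Type I interferons are secreted proteins that bind a receptor built from IFNAR1 and IFNAR2 on nearly every cell. The receptor's kinases, JAK1 and TYK2, phosphorylate STAT2, which joins IRF9 in a complex called ISGF3. ISGF3 binds the interferon-stimulated response element in DNA and switches on genes whose products sense viral RNA, block its translation or damp the signal again. IRF7 is itself made in response to interferon and drives more interferon production, so the response feeds forward.

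Promoter sequences from RefSeq on the GRCr8 build, running from 250 bases before to 50 bases after each annotated gene start, were held for 25 of the 35 members. The core of the response element was searched as GAAA, any 2 bases and GAAA again, on both strands, so that it reads TTTC, 2 bases and TTTC on the other strand. It stood in 16 of these 25 members (64%) and in 1312 of all 33469 promoters in the table (3.92%). A match is a description of letters, not a binding site or a cause. Ifit1, Ifit2, Isg15, Usp18, Zbp1, Dhx58, Ddx58, Oas2, Mx2 and Rtp4 were not searched. The window held no match for Cmpk2, Herc6, Ifi35, Irf9, Mx1, Oasl, Parp9, Stat2 and Trim25. The 4 promoters below are those of Ifit3, which was higher after silica in both tissues at 1 day, of Irf7, which followed the rest of the list closely in lung, and of Bst2 and Gbp5, which were lower after silica in lung at 6 months. They lie at chr1:241527076-241527375 (plus strand, Ifit3), chr1:205799974-205800273 (minus strand, Irf7), chr16:18254918-18255217 (minus strand, Bst2) and chr2:233910749-233911048 (plus strand, Gbp5). Each is written 5′ to 3′ on the strand of its gene, and the capitals mark the matches.
Ifit3: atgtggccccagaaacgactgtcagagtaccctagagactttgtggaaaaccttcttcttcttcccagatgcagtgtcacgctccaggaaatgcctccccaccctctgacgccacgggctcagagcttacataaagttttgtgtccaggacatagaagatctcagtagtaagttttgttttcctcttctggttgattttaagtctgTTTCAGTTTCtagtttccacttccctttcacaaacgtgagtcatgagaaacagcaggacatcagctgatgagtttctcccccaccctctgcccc
Irf7: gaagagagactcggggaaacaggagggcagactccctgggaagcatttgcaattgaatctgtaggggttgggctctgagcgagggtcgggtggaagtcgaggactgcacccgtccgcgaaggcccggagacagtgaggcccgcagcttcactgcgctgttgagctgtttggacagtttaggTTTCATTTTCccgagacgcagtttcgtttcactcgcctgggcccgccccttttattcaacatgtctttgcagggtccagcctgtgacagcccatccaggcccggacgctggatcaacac
Bst2: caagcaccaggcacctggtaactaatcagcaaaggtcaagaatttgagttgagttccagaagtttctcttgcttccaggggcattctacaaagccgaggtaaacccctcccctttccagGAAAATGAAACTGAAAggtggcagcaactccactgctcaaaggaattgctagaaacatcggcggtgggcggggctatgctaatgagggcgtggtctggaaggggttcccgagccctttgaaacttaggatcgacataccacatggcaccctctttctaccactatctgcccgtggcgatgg
Gbp5: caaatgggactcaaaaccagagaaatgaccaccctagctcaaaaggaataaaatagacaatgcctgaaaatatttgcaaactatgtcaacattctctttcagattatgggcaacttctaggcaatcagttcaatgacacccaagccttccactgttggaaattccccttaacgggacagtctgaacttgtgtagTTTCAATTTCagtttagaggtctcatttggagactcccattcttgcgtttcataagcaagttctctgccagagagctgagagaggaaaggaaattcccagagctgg
The match began 44 bases before the gene start in Ifit3, 69 bases before it in Irf7 and 56 bases before it in Gbp5. Bst2 held 2 matches that overlap each other, beginning 131 and 125 bases before the start.

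Total estimated counts ran from 13010433 to 16706362 in silica lung and from 12050268 to 25875975 in air lung at 1 day, and from 12830088 to 19767346 in silica lung and from 12119235 to 13558156 in air lung at 6 months. In blood they ran from 11972897 to 18253529 (silica) and from 12908119 to 16895810 (air) at 1 day, and from 9643524 to 13476917 (silica) and from 11432446 to 19272841 (air) at 6 months. Levels are in CPM, counts scaled to a common library size, and an effect is the log2 ratio of silica to air with its SE and edgeR's adjusted p. The summed CPM of 5 alveolar type 2 cell markers was 16636 to 30638 in the lung libraries and 176 to 253 in the blood libraries. The CPM summed over 5 neutrophil markers was 276 to 636 in silica lung and 101 to 227 in air lung at 1 day, and 402 to 590 in silica lung and 195 to 301 in air lung at 6 months. In blood it was 3400.5 to 4169 (silica) and 2061 to 2655 (air) at 1 day, and 3275 to 5133 (silica) and 3125 to 3813 (air) at 6 months. In bulk samples fewer cells of a type and less RNA per cell cannot be told apart.

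In lung at 1 day, 4 of the 35 members rose after silica (11.4%) and 0 fell, where 8.39% of the 15331 genes tested were called higher and 5.72% lower. The 4 were Ifit3, Ifit1, Isg15 and Stat2. DESeq2 called 6 higher, with Ifit2 and Parp14 added, and edgeR called 7 without silica lung 43, with Eif2ak2, Ifit2 and Mx1 added. Over the fits that left out 1 library, edgeR called 1754 to 2099 of all genes in either direction, against 2163 with every library. The total that DESeq2 called over all genes is not given here. At an unadjusted p under 0.05, 10 members were higher and 1 lower, against 14.8% and 13.1% of all genes. The whole list leaned upward by small amounts, since 28 of 35 members (80%) had a log2 fold change above 0, against 49.2% of all genes. The median was 0.11, against -0.0024 over all genes. Only Ifit1 and Ifit3 differed by more than 1.5-fold. The members moved together between animals, as described below. Counts of members, here and in the other comparisons, are therefore not counts of independent genes.

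Ifit3 encodes an RNA-binding partner of the IFIT antiviral complex. It had a lowest, median and highest level of 46.5, 66.2 and 72.6 CPM in silica lungs, against 32.4, 40.0 and 50.8 CPM in air lungs at 1 day. Silica lung 45 was the lowest of its group and lay below the highest air lung, 42, and the other 5 silica lungs lay above every air lung. The means were 64.2 ± 9.05 CPM in silica lungs and 40.2 ± 6.78 CPM in air lungs (SD, n = 6 each; log2 0.67 ± 0.12, adjusted p = 0.00138). Ifit1, which binds the 5′ end of foreign RNA, was scarce in lung, with 14 to 70 counts per library at 1 day. Its lowest, median and highest levels were 1.87, 3.06 and 5.31 CPM in silica lungs and 0.873, 1.34 and 1.97 CPM in air lungs. Only silica lung 44, the lowest of its group, lay below an air lung. The difference was 2.49-fold (log2 1.32 ± 0.27, adjusted p = 0.00473). Reads of Ifit1 can be shared with its near copies, which makes its counts uncertain.

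Isg15 encodes a ubiquitin-like protein that is attached to other proteins after interferon. It had 27.1, 34.8 and 38.9 CPM (lowest, median and highest) in silica lungs, against 25.2, 28.4 and 30.4 CPM in air lungs at 1 day. Silica lung 45 alone lay inside the range of the air lungs. The difference was small (log2 0.28 ± 0.074, adjusted p = 0.0200). Stat2, the signal transducer of ISGF3, had 105, 108 and 114 CPM in silica lungs and 94.9, 99.3 and 107 CPM in air lungs. The groups overlapped, because air lung 40 lay above 3 silica lungs. Its difference was 1.09-fold (log2 0.12 ± 0.035, adjusted p = 0.0304), and this call was lost when any of 6 libraries was left out (air 37, 39, 41 or 42, silica 46 or 48). Over the lung libraries at 1 day, with group means subtracted, the summed neutrophil markers had r = 0.79 with Ifit3 and r = 0.11 with the mean of all members (n = 12). Ifit3 also had r of 0.84 with summed plasmacytoid dendritic cell, -0.72 with alveolar type 2 and 0.70 with endothelial markers. All 5 neutrophil markers were called higher in these silica lungs. The part of these cell types in the result was not tested.

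**Figure D1:**
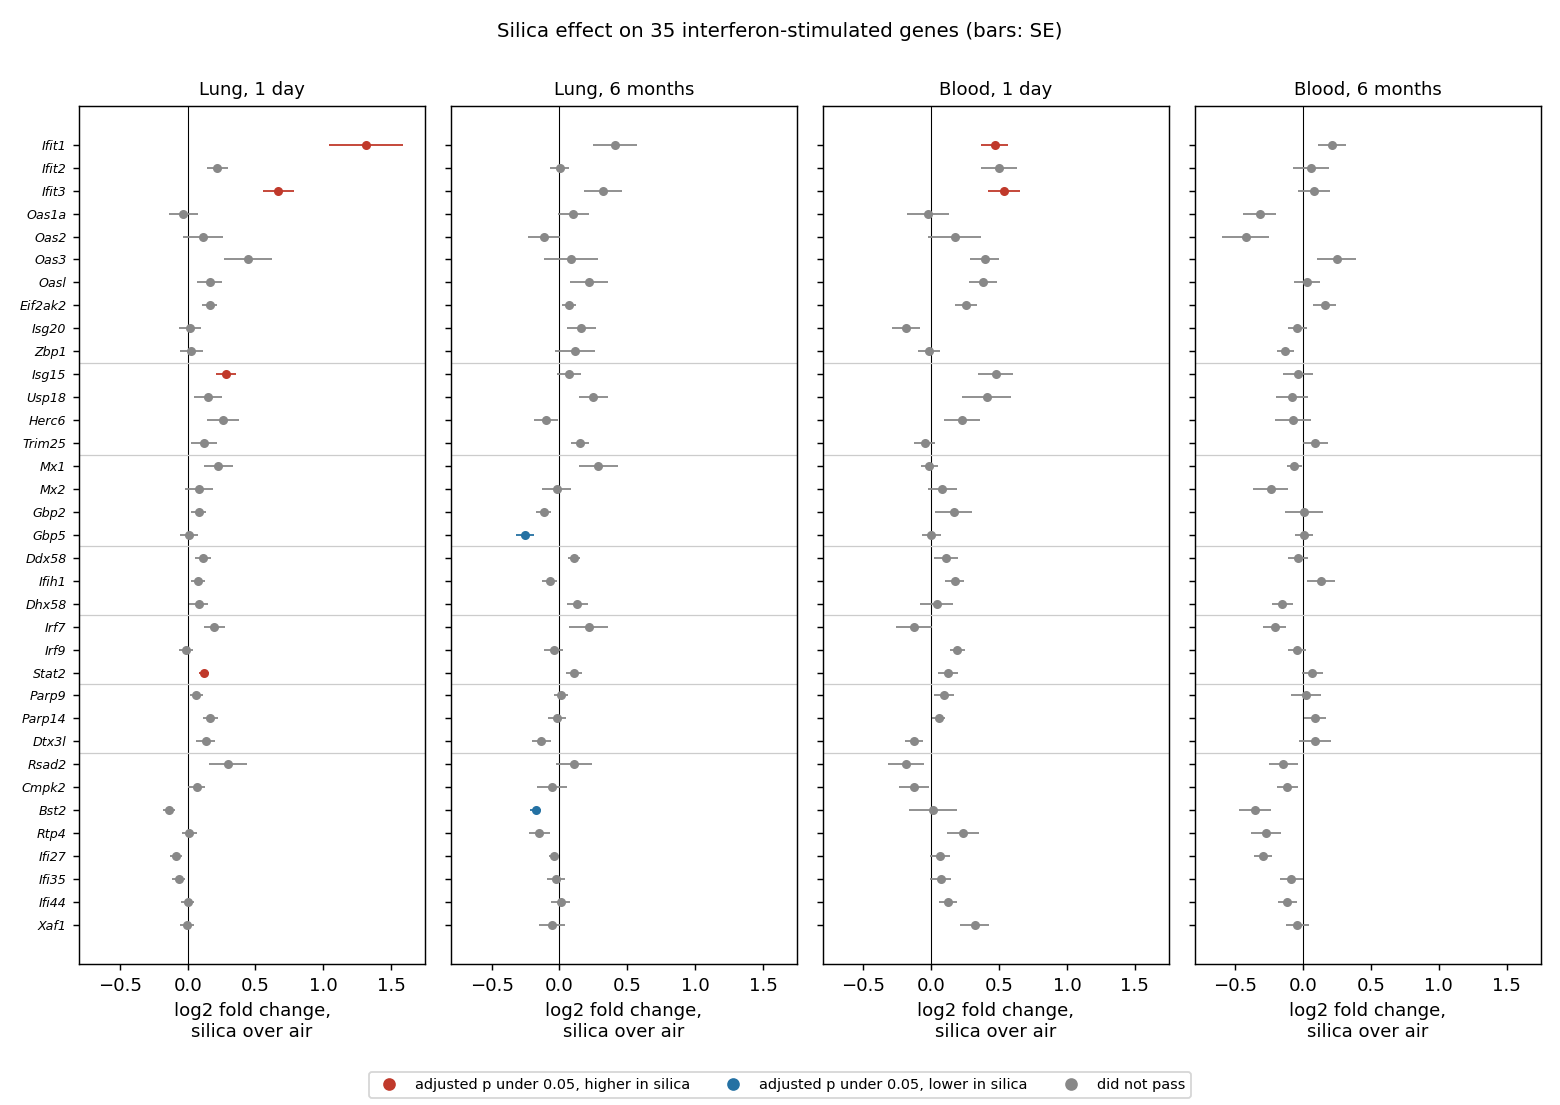
Log2 fold change of silica over air (x axis, ± SE) for the 35 interferon-stimulated genes (rows, grouped by role) in lung and blood at 1 day and 6 months, with colours for members called higher or lower at an adjusted p under 0.05 and grey for the others. Ifit1 in lung at 1 day stands farthest to the right at 1.32, and most other members lie within 0.5 of zero.

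By role, the upward lean in lung at 1 day was largest in the modifier system of Isg15, its protease Usp18, the ligase Herc6 and Trim25, whose 4 members had a median log2 fold change of 0.21. The 10 RNA-binding and nuclease effectors, which hold the IFIT and OAS families, had a median of 0.16 with 9 above 0. The 8 members grouped as membrane, nucleotide and other proteins had a median of -0.0029. Bst2, the tetherin that holds budding virus on the cell surface, had 277, 300.3 and 324 CPM in silica lungs and 312, 333 and 338 CPM in air lungs. Of the silica lungs 3 lay above the lowest air lung. Its log2 difference of -0.14 ± 0.044 did not pass (adjusted p = 0.0541), and it passed as lower under 6 of the alternative settings.

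Members often used as readouts of interferon action did not pass in lung at 1 day. Mx1, a GTPase that traps viral nucleocapsids, had 41.5, 60.4 and 67.2 CPM in silica lungs and 41.3, 49.2 and 57.1 CPM in air lungs (log2 0.23 ± 0.11, adjusted p = 0.184). Rsad2, or viperin, which makes a chain-terminating nucleotide, had 15.8, 22.6 and 28.2 CPM in silica lungs and 13.2, 19.2 and 21.4 CPM in air lungs (log2 0.30 ± 0.14, adjusted p = 0.191). Irf7 had 68.5, 83.3 and 88.5 CPM in silica lungs and 62.4, 68.2 and 78.3 CPM in air lungs (log2 0.20 ± 0.078, adjusted p = 0.111). In all 3 genes the silica median was above the air median and the groups overlapped. Usp18 had 19.4, 24.2 and 28.6 CPM in silica lungs and 18.6, 22.0 and 24.5 CPM in air lungs (adjusted p = 0.369). Oas1a, a sensor of double-stranded RNA that activates RNase L, had 14.6, 15.0 and 20.7 CPM in silica lungs and 14.3, 17.0 and 19.6 CPM in air lungs (log2 -0.032 ± 0.11). Both groups overlapped over most of their range for these last genes. No member had silica and air levels that did not overlap, where 5.04% of all genes did so in the higher and 2.75% in the lower direction.

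In lung at 6 months, 0 members rose by edgeR and 2 fell, Bst2 and Gbp5 (5.71%), where 9.84% of the 15309 genes tested were called higher and 6.38% lower. The median log2 fold change of the members was 0.01, against -0.0080 over all genes, and 20 of 35 (57.1%) were above 0, against 47.9% of all genes. At an unadjusted p under 0.05, 5 members were higher (Ifit1, Ifit3, Usp18, Trim25 and Ddx58) and 3 lower, against 16% and 14.6% of all genes. The silica and air levels of 0 members were without overlap, against 6.96% of all genes in the higher and 3.5% in the lower direction.

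Bst2 had 261, 272 and 286 CPM (lowest, median and highest) in silica lungs at 6 months. In air lungs it had 285 CPM in 51, 301 CPM in 49, 305 CPM in 52, 312 CPM in 54 and 332 CPM in 53. Only the lowest air lung, 51, reached the range of the silica lungs. The means were 272 ± 10.04 CPM in silica and 307 ± 17.3 CPM in air lungs (SD, n = 6 and 5; log2 -0.18 ± 0.041, adjusted p = 0.0119). Gbp5, a guanylate-binding protein that coats intracellular pathogens and is induced strongly by interferon gamma, had 51.2, 55.3 and 63.9 CPM in silica lungs. In air lungs it had 59.8 CPM in 51, 63.1 CPM in 52, 67.3 CPM in 53, 70.0 CPM in 49 and 75.2 CPM in 54. Air lungs 51 and 52 lay within the silica range and the other 3 above it. The log2 difference was -0.25 ± 0.064 (adjusted p = 0.0179), and Gbp5 and Bst2 passed in every fit that left out 1 library. Reads of Gbp5 can be shared with other guanylate-binding protein genes. In the same silica lungs 5 of 5 endothelial markers were called lower, with a summed CPM of 2175 to 2562 in silica and 2727 to 3111 in air lungs. All 5 alveolar type 2 markers were called higher, with sums of 24204 to 30638 CPM in silica and 16636 to 21063 CPM in air lungs, as were the 4 macrophage markers tested, with sums of 512 to 653 CPM in silica and 329 to 426 CPM in air lungs. With group means subtracted, Bst2 had r of 0.088, -0.0044 and 0.19 with these 3 sums (n = 11). Among all marker sums its r farthest from 0 was with platelet markers, at -0.63, and at -0.88 in lung at 1 day. No such r was computed for Gbp5. The part of these cell types in the result was not tested.

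Members that rose in lung at 1 day did not pass at 6 months. Ifit3 had 58.3, 71.7 and 93.8 CPM in silica lungs at 6 months, against 50.6 CPM in air lungs 49 and 52, 56.5 CPM in 51, 56.8 CPM in 53 and 77.9 CPM in 54. Air lung 54 lay above the other 4 air lungs and above 4 silica lungs. The difference did not pass (log2 0.32 ± 0.14, adjusted p = 0.140), but without air lung 54 it did (log2 0.44, adjusted p = 0.0368). Ifit1 had 2.37, 2.78 and 3.79 CPM in silica lungs and 1.81 to 2.76 CPM in air lungs (log2 0.41 ± 0.16, adjusted p = 0.108). Usp18 (log2 0.25 ± 0.11, adjusted p = 0.127) passed only without silica lung 61, the lowest of its group over the list (log2 0.32, adjusted p = 0.0226).

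In blood at 1 day, 2 members rose, Ifit1 and Ifit3, (5.71%), and 0 fell, where 1.19% of the 12253 genes tested were called higher and 0.18% lower. A log2 fold change above 0 was seen in 26 of 35 members (74.3%), against 46.7% of all genes, and the median was 0.11, against -0.010 over all genes. At an unadjusted p under 0.05, 11 members were higher and 0 lower, where 6.95% of all genes were higher and 5.91% lower. Because the members moved together between animals, these are not 11 independent results.

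Ifit1 had 25.9, 27.0 and 34.3 CPM (lowest, median and highest) in silica blood and 16.3, 21.9 and 23.6 CPM in air blood at 1 day. It was the 1 member whose silica and air levels did not overlap, as was the case in the higher direction for 1.51% of all genes. The means were 28.9 ± 3.66 CPM in silica and 20.8 ± 2.93 CPM in air blood (SD, n = 6 each; log2 0.47 ± 0.099, adjusted p = 0.0325). Ifit3 had 351, 480.1 and 551 CPM in silica blood and 267, 316 and 432 CPM in air blood. The lowest silica library, 43, lay below the highest air library, 40. The log2 difference was 0.54 ± 0.12 (adjusted p = 0.0438). Both calls were close to the threshold: Ifit1 lost it in 7 and Ifit3 in 10 of the 12 fits that left out 1 library. The count of members called higher ran from 0 to 6 over those fits, with 0 without air 37, 38, 41 or 42 or without silica 45, 46 or 48, and 6 without air 40 or without silica 43. Over the same fits 86 to 211 of all genes were called in either direction.

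Among the next members by p in blood at 1 day, Isg15 had 69.3, 91.2 and 113 CPM in silica blood and 57.2, 62.8 and 92.9 CPM in air blood (log2 0.48 ± 0.13, adjusted p = 0.0975). Air library 40 stood apart at the top of its group, and the other 5 air libraries lay below every silica library. Ifit2 (log2 0.50 ± 0.13, adjusted p = 0.0839), Oasl (log2 0.38 ± 0.10, adjusted p = 0.0864), Oas3 (log2 0.39 ± 0.11, adjusted p = 0.104) and Irf9 (log2 0.19 ± 0.054, adjusted p = 0.109) did not pass. With DESeq2, 7 members were called higher, and the 5 added were Ifit2, Irf9, Isg15, Oas3 and Oasl, while that tool called 360 genes in place of 168. The effectors and the modifier system each had a median log2 fold change of 0.32.

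Several index members were near 0 or below it in blood at 1 day. Rsad2 had 2374, 2452 and 2997 CPM in silica blood and 2300.3, 2766 and 4228 CPM in air blood (log2 -0.19 ± 0.13, adjusted p = 0.602). Irf7 had 1729, 1847 and 2470.0 CPM in silica blood and 1713, 2042 and 3058 CPM in air blood (log2 -0.13 ± 0.13, adjusted p = 0.746). Only air library 40 for Irf7, and air libraries 40 and 37 for Rsad2, lay above every silica library. Mx1 (log2 -0.013, adjusted p = 0.965), Oas1a (log2 -0.027, adjusted p = 0.970) and Bst2 (log2 0.012, adjusted p = 0.991) were near 0. Usp18 had 14.5, 24.2 and 33.7 CPM in silica blood and 13.5, 17.6 and 25.0 CPM in air blood (log2 0.41, adjusted p = 0.346), so its silica median was above its air median and the groups overlapped. In the same silica blood 4 of 5 neutrophil markers were called higher, with a median log2 fold change of 0.71, and their part in the result was not tested.

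**Figure D2:**
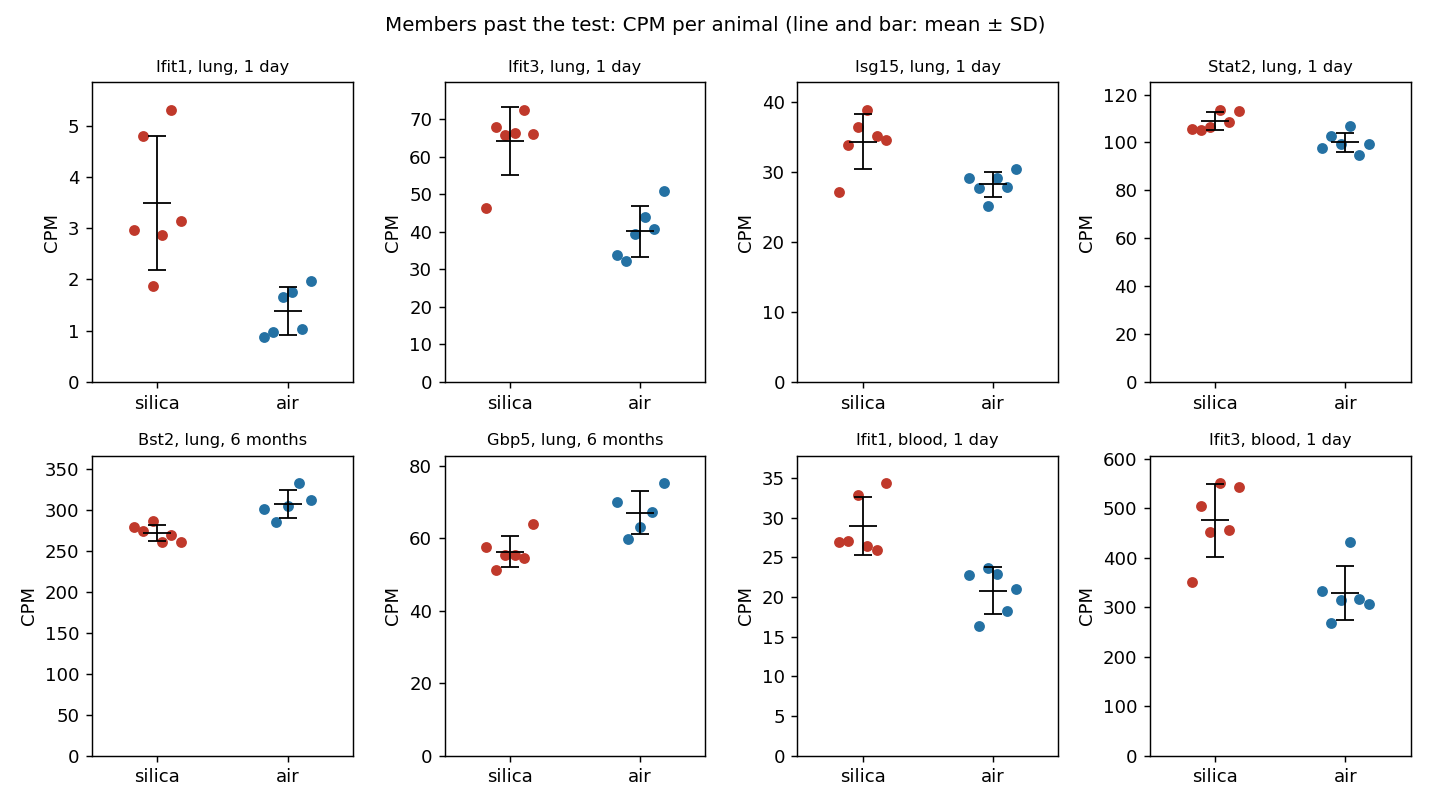
Level in CPM (y axes from 0) of the members called in at least 1 comparison, 1 point per library, silica left of air, with bars for the mean ± SD (n = 6, or 5 for air lung at 6 months). Ifit1 in blood at 1 day is the panel in which the lowest silica library, at 25.9 CPM, lies above the highest air library, at 23.6 CPM.

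In blood at 6 months, no member was called by edgeR, DESeq2 or limma-voom, where edgeR called 1 of the 11629 genes tested higher (0.0086%) and 0 lower (0%). At an unadjusted p under 0.05, 0 members were higher and 6 lower, while 4.99% of all genes were higher and 3.71% lower. The median log2 fold change was -0.043, against -0.0087 over all genes, and 14 members (40%) were above 0, against 47.3% of all genes. All 8 members grouped as membrane, nucleotide and other proteins were below 0, with a median of -0.13.

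The 6 members were Ifi27, Bst2, Oas1a, Rtp4, Irf7 and Oas2. Ifi27, a small protein of mitochondrial and nuclear membranes, had 96.3, 115 and 126 CPM (lowest, median and highest) in silica blood and 126, 139 and 149 CPM in air blood at 6 months. Only silica library 63 lay above an air library, by less than 1 CPM. The log2 difference of -0.29 ± 0.068 did not pass over all genes (adjusted p = 0.539). Bst2 had 24.4, 30.7 and 38.6 CPM in silica blood and 33.9, 37.1 and 53.1 CPM in air blood (log2 -0.36 ± 0.12, adjusted p = 0.539). Irf7 had 1965, 2398 and 2641 CPM in silica blood and 2442, 2685 and 3137 CPM in air blood (log2 -0.21 ± 0.086, adjusted p = 0.554). The groups overlapped for both genes, although 4 silica libraries for Bst2 and 3 for Irf7 lay below every air library. Ifit3 had 436, 503 and 704 CPM in silica blood and 399.8, 507 and 627 CPM in air blood (log2 0.079 ± 0.12), so its lowest and highest libraries nearly enclosed the same range.

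Differences between the silica effects at 2 times or in 2 tissues were tested as interactions, and edgeR, with no animal term, called 0 members in any of the 4. For 6 months minus 1 day in lung, 217 of 15786 genes were called, 1.12% higher and 0.253% lower. At an unadjusted p under 0.05, 0 members were higher and 5 lower, against 7.93% and 5.61% of all genes. Ifit1 was the first of them (log2 difference -0.91 ± 0.33, adjusted p = 0.213), followed by Gbp5, Dtx3l, Gbp2 and Herc6. For 6 months minus 1 day in blood, 0% of 12444 genes were called. At an unadjusted p under 0.05, 0 members were higher and 11 lower, against 6.35% and 4.31% of all genes. These 11 are not independent, because the members moved together between animals. The 11 were Ifi27, Rtp4, Isg15, Irf9, Xaf1, Ifit3, Oasl, Ifi44, Ifit2, Usp18 and Oas2. The smallest adjusted p among them was 0.183, for Ifi27, and with DESeq2 Ifi27 passed (log2 difference -0.36, adjusted p = 0.0467). The median interaction over the members was -0.048 in lung and -0.15 in blood. For blood minus lung, 1.98% of 15989 genes were called higher and 2.05% lower at 1 day, and 1% of 15790 genes higher and 2.53% lower at 6 months. Unadjusted, 3 members were higher and 3 lower at 1 day (9.78% and 7.73% of all genes), and 1 was higher and 5 lower at 6 months (7.8% and 9.33%).

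By p, the first member whose silica effect differed between blood and lung at 1 day was Irf9, the DNA-binding part of ISGF3, although it did not pass (log2 difference 0.25 ± 0.074, adjusted p = 0.0594). In a paired fit with the animal as a replicate block, Xaf1, a factor that favours cell death (log2 difference 0.38 ± 0.091, adjusted p = 0.0415), and Irf9 (0.25 ± 0.060, adjusted p = 0.0431) passed, with the larger silica effect in blood. Xaf1 had a log2 fold change of 0.32 in blood and -0.0055 in lung at 1 day. Ifit1 ran the other way, with a larger silica effect in lung (log2 difference -0.77 ± 0.28, adjusted p = 0.126). With DESeq2, Irf9 (0.24, adjusted p = 0.0415) and Ifit1 (-0.80, adjusted p = 0.0437) passed at 1 day, and Gbp5 (0.30, adjusted p = 0.0473) at 6 months.

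The wider interferon pathway was described with a list of 64 further names, of which 60 were found in the tables. In lung at 1 day, 11 of the 51 tested were called higher and 1 lower, against 8.39% and 5.72% of all genes. The largest rise was in Tmem173, which encodes STING, the adaptor of cytosolic DNA sensing, with 29.9 to 40.9 CPM in silica lungs and 17.0 to 22.2 CPM in air lungs (log2 0.88 ± 0.086, adjusted p = 1.19e-05). Also called higher were the transcription factors Irf5 (log2 0.45 ± 0.078, adjusted p = 0.00132) and Irf8 (log2 0.32 ± 0.066, adjusted p = 0.00455), the receptor chains Ifngr2 (log2 0.23 ± 0.053) and Ifnar2 (log2 0.15 ± 0.044), Jak2, Myd88, Samhd1, Ciita, Lgals3bp and Ifi47. The chemokine Cxcl9, a target of interferon gamma, was lower, with 6.27 to 7.45 CPM in silica lungs and 8.09 to 10.1 CPM in air lungs (log2 -0.36 ± 0.086, adjusted p = 0.0118). Both Tmem173 and Cxcl9 had groups that did not overlap. Ifnar1, Ifngr1, Jak1, Tyk2, Irf1, Irf3, Socs1 and Cxcl10 were not called in any of the 4 comparisons, and the interferon genes Ifng and Ifnb1 did not pass the filter on low counts.

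In lung at 6 months, 6 of 52 pathway genes were called higher (Ifngr2, Ptpn6, Tmem173, Myd88, Cxcl11 and Lgals3bp) and 1 lower (Ifitm2), against 9.84% and 6.38% of all genes. Tmem173 kept a difference of similar size (log2 0.93 ± 0.086, adjusted p = 5.40e-05). Cxcl11, a chemokine for T cells, had 0.619 to 4.01 CPM in silica lungs and 0.289 to 0.826 CPM in air lungs (log2 1.73 ± 0.51, adjusted p = 0.0352). In blood at 1 day 1 of 48 was called higher, against 1.19% of all genes, the oligoadenylate synthetase gene Oas1k, with 114, 141 and 146 CPM in silica blood and 76.4, 93.6 and 111 CPM in air blood (log2 0.51 ± 0.086, adjusted p = 0.0128). Its groups did not overlap, and its reads can be shared with other Oas1 genes. In blood at 6 months edgeR called 0 of 47.

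Within a treatment group the members moved together from animal to animal. After each gene's group mean was subtracted from its log2 CPM, the median correlation over the 595 pairs of members was 0.43 and 0.56 in lung and 0.55 and 0.41 in blood at 1 day and 6 months. The median over pairs of all genes lay between -0.0023 and -8.7e-05. These are descriptions over 12 libraries (11 in lung at 6 months), and the genes of a pair share each library's depth and cell makeup. The median was 0.49, 0.58, 0.58 and 0.42 in silica libraries alone and 0.38, 0.61, 0.58 and 0.46 in air libraries alone, in the order lung at 1 day, lung at 6 months, blood at 1 day and blood at 6 months. Air rats and silica rats both showed it. Against the mean of the other members, 10, 15, 12 and 15 of the 35 had r of at least 0.8 in the same order, or 28.6% to 42.9%. Of the other genes 0.144% to 0.785% reached that value.

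The strongest followers of the list mean were not the same in each tissue and time, and differences in their rank were not tested. In lung at 1 day they were Irf7 (r = 0.92), the ADP-ribosyltransferase Parp9 (0.90), Mx1 (0.88) and Oas2 (0.88), and at 6 months Mx1 (0.92), the kinase Eif2ak2 (0.91) and Mx2 (0.90). In blood at 1 day they were Usp18 (0.97), Herc6 (0.96) and Oasl (0.95), and at 6 months Herc6 (0.98), Ifit3 (0.97) and Isg15 (0.94). Pairs with a shared function or location were uneven. Isg15 and its protease Usp18 had r of 0.63 and 0.81 in lung at 1 day and 6 months and 0.90 in blood at both times. The neighbouring genes Rsad2 and Cmpk2 had r of 0.65 and 0.50 in lung and 0.88 and 0.84 in blood. Stat2 and Irf9, both parts of ISGF3, had r of 0.47 and 0.74 in lung and 0.84 and 0.93 in blood. Ifit2 and Ifit3 had r of 0.28 and 0.79 in lung and 0.93 and 0.90 in blood, and Mx1 and Mx2 had r of 0.93 and 0.85 in lung and 0.54 and 0.57 in blood. Oas2 and Oas3 had r of 0.70 and 0.55 in lung and 0.33 and 0.51 in blood, and Parp9 and its partner Dtx3l had r of 0.48 and 0.86 in lung and 0.46 and 0.40 in blood. Rsad2 and Irf7 had r of 0.74 and 0.51 in lung and 0.66 and 0.52 in blood.

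Ifit1, which was called in both tissues at 1 day, did not follow the list mean at that time. Its r with the mean of the other members was -0.08 in lung and 0.073 in blood at 1 day, and 0.30 in lung and 0.52 in blood at 6 months. Ifit3, of the same family, had r = 0.60 in lung at 1 day. Bst2 had r of -0.045 and 0.47 in lung and 0.54 and -0.65 in blood at 1 day and 6 months. Isg20, an exonuclease, had r of 0.12 and -0.13 in lung and 0.55 and -0.48 in blood. Zbp1, a sensor of Z-form nucleic acid, had r of -0.11 and 0.74 in lung and 0.17 and 0.11 in blood. With the summed monocyte markers Bst2 had r of 0.93 and 0.82 in blood (n = 12) and of -0.77 and -0.12 in lung at 1 day and 6 months. In blood Bst2 also had r of 0.89 and 0.31 with the alveolar type 2 markers at 1 day and 6 months. With the neutrophil markers it had r of -0.31 and -0.79. The part of monocytes or other cells in the Bst2 values was not tested.

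**Figure D3:**
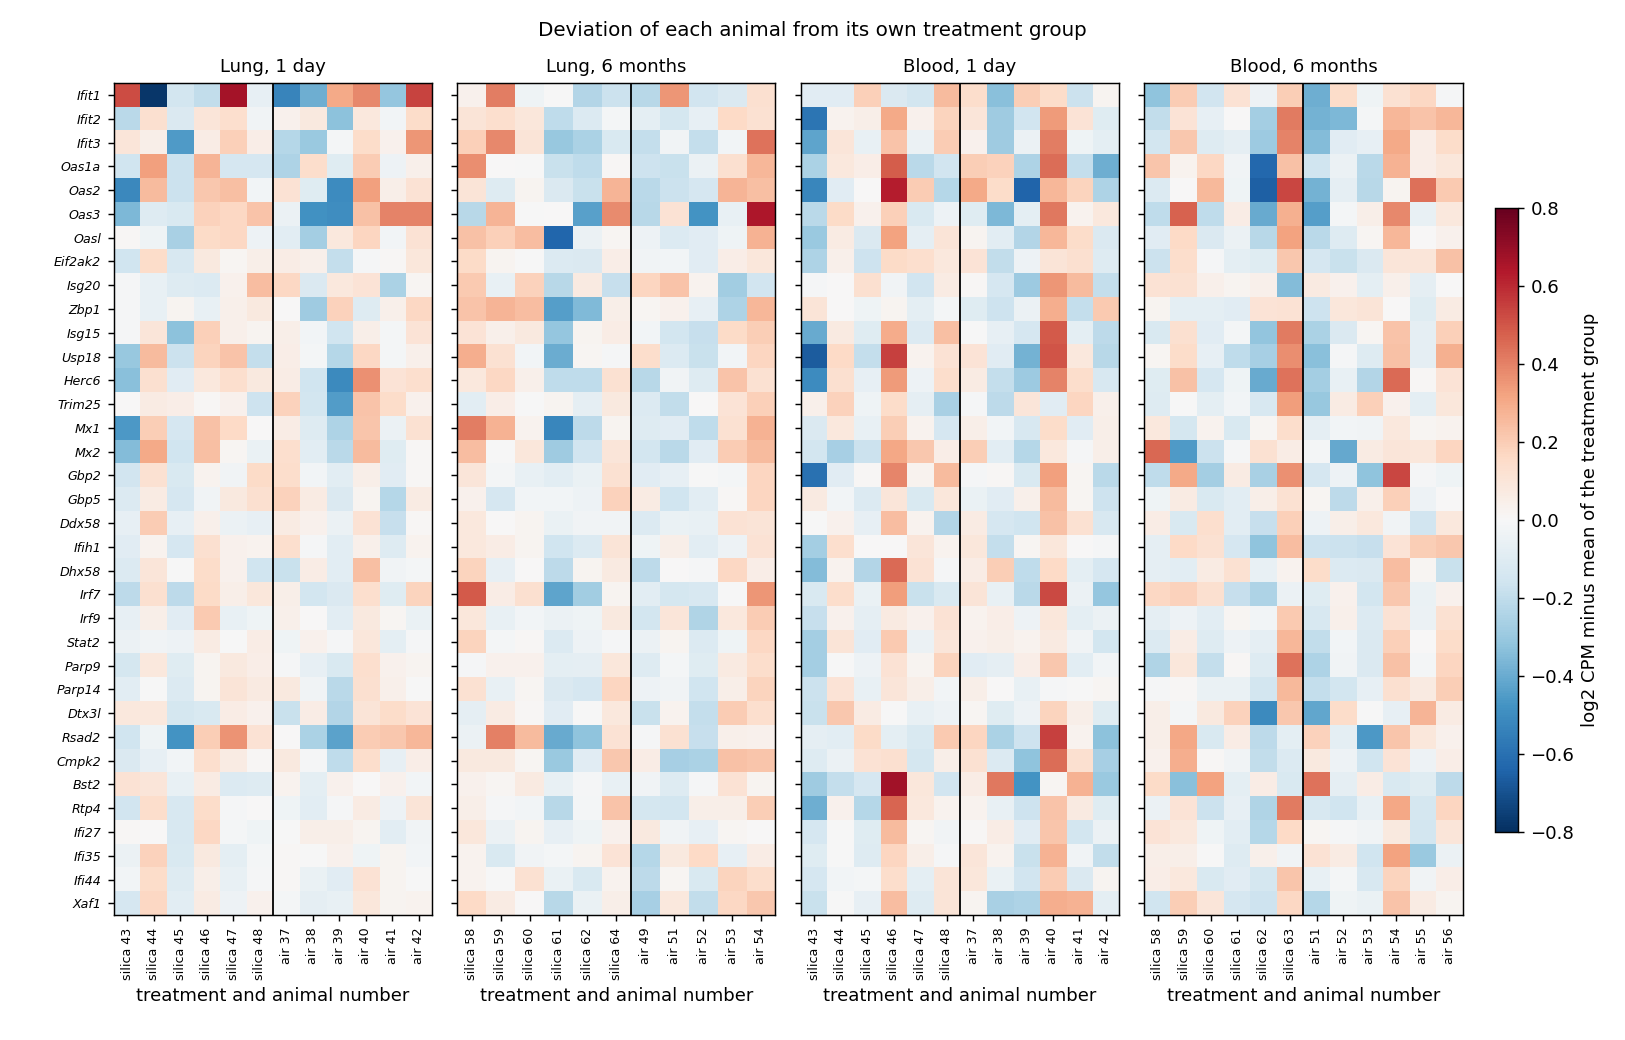
Deviation of each member (rows) from the mean of its own treatment group, in log2 CPM (colour, -0.8 to 0.8), in every library (columns, by animal number, silica left of air in each of the 4 tables). Columns of nearly one colour mark animals whose members lay together above or below their group, such as silica lung 45 and air lung 54.

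Some animals deviated in the same direction over most of the list, but the co-variation did not rest on 1 library. With each library left out in turn, the median correlation between members stayed at 0.38 to 0.47 in lung at 1 day. It stayed at 0.48 to 0.59 in lung at 6 months, 0.47 to 0.61 in blood at 1 day and 0.38 to 0.46 in blood at 6 months. Among silica lungs at 1 day, 45 averaged -0.14 log2 below its group, with 2 of 35 members above the group mean, and 46 averaged 0.09, with 30 members above. Among air lungs at 1 day, 40 averaged 0.13 with 32 members above, and 39 averaged -0.13 with 7 above. Silica lung 61 at 6 months averaged -0.19 with 2 members above, and silica lung 58 averaged 0.12 with 30 above. Air lung 54 averaged 0.18 with 34 of 35 members above, and air lung 52 averaged -0.11 with 4 above. For scale, the median silica effect over the members was 0.11 in lung at 1 day and 0.01 at 6 months. That is a median of differences between groups, while each deviation is a mean over members in 1 animal. Their sizes are therefore not directly comparable. In blood at 1 day silica 46 averaged 0.23 and silica 43 averaged -0.23, with 31 and 3 members above, and air 40 averaged 0.26 with 33 above. In blood at 6 months silica 63 averaged 0.20 and silica 62 averaged -0.18, and air 54 averaged 0.17 and air 51 averaged -0.14. The mean deviation had r of 0.22, -0.31, 0.45 and -0.24 with the total counts of the libraries in the 4 tables. Its r with the summed plasmacytoid dendritic cell markers was 0.64 and 0.69 in lung and -0.036 and -0.26 in blood. In lung at 1 day that sum was 89.3 to 111 CPM in silica and 85.4 to 98.5 CPM in air lungs, and at 6 months it was 94.9 to 114 CPM in silica and 89.2 to 122 CPM in air lungs. None of its 4 markers was at 0 in every lung library, and 1, Irf8, was called higher, at 1 day. Irf8 is also on the wider pathway list and alone had r of 0.45 and 0.62 in lung. The mean deviation also followed other marker sums. In lung its r was -0.54 with alveolar type 2 markers at 1 day. At 6 months it was -0.86 with platelet, -0.69 with red cell and 0.63 with monocyte markers. In blood it was 0.77 with macrophage markers at 1 day and 0.73 with neutrophil markers at 6 months. Heart muscle markers, with sums of at most 0.073 CPM in blood at 1 day, had r = 0.80 there. An r of this size therefore does not by itself point to a cell type. The part of these cells in the co-variation was not tested.

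The same animals tended to deviate in the same direction in lung and blood. The mean deviation over the members in lung and blood of the same animal number had r = 0.70 (rho = 0.64) at 1 day over 12 animals, with r = 0.72 in silica and 0.67 in air rats, and the sign was shared in 9 animals. Without animals 45 and 39, the farthest from the median in lung, r was 0.70. At 6 months it had r = 0.64 (rho = 0.72) over 9 animals, 0.88 without animals 61 and 52, and the sign was shared in 7. Libraries were paired by the number in their titles, taken as 1 animal, and the 2 tissues were counted in separate tables. Red cell markers summed to 3372 to 4457 CPM in silica and 4502 to 5959 CPM in air lungs at 1 day. At 6 months they summed to 3735 to 5835 CPM in silica and 4866 to 6866 CPM in air lungs. The lung libraries thus held some blood RNA, and its part in the shared deviation was not tested. Over single members the median lung to blood r was 0.49 at 1 day, with 17 of 35 (48.6%) at 0.5 or more, against 0.027 and 8.66% over 11728 genes. At 6 months the median was 0.40 with 11 of 35 (31.4%), against 0.036 and 11.9% over 11224 genes.

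**Figure D4:**
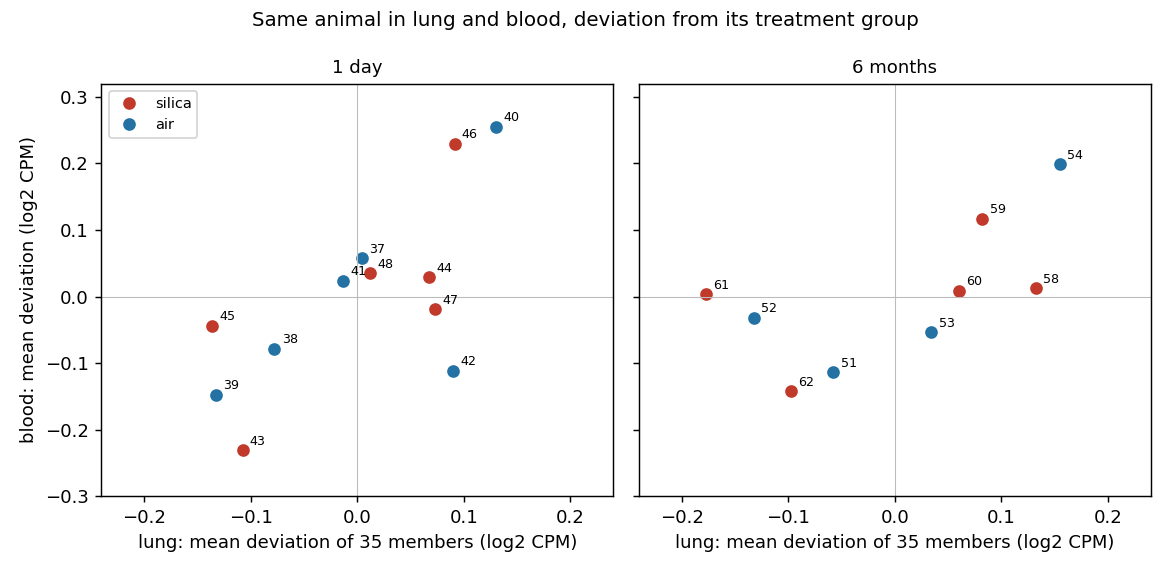
Mean deviation of the 35 members from the animal's own treatment group in lung (x axis) and blood (y axis), both in log2 CPM, 1 point per animal with its number, silica and air in 2 colours, at 1 day (12 animals) and 6 months (9 animals). Animals 40 and 46 at 1 day and 54 at 6 months lie high in both tissues.

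Of 16 such relations computed for the 8 index members at 2 times, none passed the correction by Pearson's r. Mx1 came closest at 1 day (r = 0.81, permutation p = 0.00375, adjusted 0.0551; rho = 0.84, adjusted permutation p = 0.0440; n = 12), and r was 0.82 without the 2 animals farthest from the median in lung. Usp18 had r = 0.74 at 1 day (rho = 0.69; adjusted permutation p = 0.0551 and 0.165) and 0.50 without 2 such animals. At 6 months Irf7 had r = 0.83 and rho = 0.85 (exact permutation p = 0.0215 and 0.0229, adjusted 0.115 and 0.165; n = 9) and 0.83 without 2. Ifit3 had r = 0.72 at 6 months (rho = 0.47), which rested on 2 animals, since it was 0.066 without them. Ifit1 had r of 0.14 and -0.11, and Rsad2 of 0.097 and 0.32, at 1 day and 6 months.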

How the data were processed

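RNA was sequenced from lung and whole blood of silica and air rats, and 4 tables, 1 for each tissue and time, were analysed apart. The values deposited by the authors are estimated counts, which can be fractional and were not normalized. The build Rnor_6.0 and the tools Salmon 1.10.1, STAR 2.6.1d, Trim Galore 0.6.7, cutadapt 3.4 and bcl2fastq 2.19 are listed, without roles, in the submitters' processing notes. Values of Ifit1, the Oas1 genes, Mx1 and Mx2 and the Gbp genes are uncertain, because such counts divide reads among near copies. Libraries are stranded and made from polyadenylated RNA, per the labels' protocols.

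Counts were rounded to whole numbers and tested in R 4.3.3 with edgeR 4.0.16 (limma 3.58.1). Genes under a minimum count of 10 were removed by filterByExpr, libraries were scaled by TMM, and silica was set against air in a quasi-likelihood test, with p adjusted over all genes (Benjamini-Hochberg, threshold 0.05). The SE was obtained by dividing the effect by the square root of F. Interactions used 4 groups. Co-variation used log2 CPM with a prior count of 2, centred on group means. Permutation tests were two-sided. Members and lists were chosen with earlier results of these data known. Values per sample are given for members past the threshold and for 8 index members (Ifit1, Ifit3, Isg15, Mx1, Oas1a, Rsad2, Irf7 and Usp18) whatever their test. Results of 1 gene that the rule names are left out. Singled out after their values were seen were other members close to the threshold, Ifi27 and Bst2 in blood, and the strongest and weakest followers of the list mean. Alternatives were DESeq2 1.42.0, limma-voom, other scaling factors and filters, robust dispersions, all groups of a tissue in 1 fit, genes left out or summed by name, the animal as a block and each library left out.

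On simulated counts with known changes of 0.585 (log2) in 100 genes, the test recovered 85% in lung and 90% in blood at 1 day, and 87% in lung and 90% in blood at 6 months. Changed genes were drawn only from those above a minimum mean CPM, which left out Ifit1 in lung. Most member effects were smaller than 0.585, so these shares do not describe how often such effects would be found. Libraries of a group had chi-square per degree of freedom of 3.72 to 34.6 over 115 pairs, so no pair agreed within sampling noise. Animal numbers in the titles are shared by lung and blood and were taken as the same animal, which the labels do not state outright. Over all genes, centred libraries of the same number had r of -0.086 to 0.177 at 1 day, when 3 of 12 animals exceeded 0.1. At 6 months r was -0.106 to 0.140, and 1 of 9 animals exceeded 0.1.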

Additional observations from a re-analysis of the deposited data

Results flagged for a closer look

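Per-sample levels of 11 members were looked over for single libraries far from the rest of their group, and 10 of 88 groups held one. Chance gives about 1 in 20 for independent groups. These were not independent, because the members moved together between animals, so no excess can be read from the count. Ifit3 was 46.5 CPM in silica lung 45 at 1 day, with the next silica lung at 65.7 CPM. In lung at 6 months, air 54 was high for Ifit3 (77.9 CPM, the next 56.8 CPM) and Irf7 (105 CPM, the next 82.0 CPM). Among silica lungs at 6 months, Ifit1 was 3.79 CPM in 59 (the next 2.89 CPM), Isg15 was 24.3 CPM in 61 (the next 30.6 CPM) and Oas1a was 22.4 CPM in 58 (the next 17.4 CPM). In blood at 1 day, Bst2 was 61.5 CPM in silica 46 (the next 40.9 CPM) and Isg15 was 92.9 CPM in air 40 (the next 65.9 CPM). In blood at 6 months, Oas1a was 10.6 CPM in silica 62 (the next 16.2 CPM) and Bst2 was 53.1 CPM in air 51 (the next 41.0 CPM). Lungs 45, 61 and 54 and blood 40 also deviated in the same direction over most of the list.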

How the results depend on the processing

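Over 438 pairs of a named member and an alternative that left out no library, 426 kept their direction and side of the threshold. Bst2 was 1 member called lower in lung at 1 day with DESeq2, limma-voom, RLE factors, robust dispersions, all 4 groups of the tissue in 1 fit, and mitochondrial, globin and erythroid genes left out, and Stat2 lost its call with all 4 groups in 1 fit (adjusted p = 0.0962). With DESeq2, 7 members were called higher in blood at 1 day (all genes 360, against 168). DESeq2 also called 1 member lower in the blood interaction of time (all genes 85, against 0), 1 higher and 1 lower in the tissue interaction at 1 day, and 1 higher at 6 months (all genes 1012, against 557), and called 351 genes, against 217, in the lung interaction of time and 2, against 1, in blood at 6 months. In the paired fit with the animal as a replicate block, 2 members were called higher at 1 day (all genes 415, against 645) and 0 at 6 months over 9 animals (202, against 557). The sign of Gbp5 near 0 turned in blood at 1 day with DESeq2 (-3.7e-05), RLE factors (-0.00020) and a minimum count of 50 (-0.0014), and at 6 months with upper-quartile factors (-0.00041). Without centring, the lung to blood r turned for Rsad2 at 1 day (-0.084) and Ifit1 at 6 months (0.23), and Usp18 at 1 day passed (0.78, adjusted permutation p = 0.0494). The cause of these changes was not tested.

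With each library left out in turn, members called higher ranged from 3 to 7 in lung at 1 day (7 without silica 43), from 0 to 2 in lung at 6 months (2 without air 54 or without silica 61), from 0 to 6 in blood at 1 day and from 0 to 0 in blood at 6 months. All genes called in either direction ranged from 1754 to 2099 in lung at 1 day and from 1863 to 2610 at 6 months. In blood they ranged from 86 to 211 at 1 day and from 0 to 1 at 6 months. Members called lower ranged from 0 to 1 in lung at 1 day (1 without air 38 or without silica 43, 44 or 46) and from 2 to 2 in lung at 6 months, and stayed at 0 in blood and in the interactions. Log2 fold changes that turned in sign ranged in blood at 1 day from -0.16 to 0.11 for Bst2, from -0.032 to 0.056 for Gbp5, from -0.055 to 0.017 for Mx1 and from -0.15 to 0.073 for Oas1a. In blood at 6 months they ranged from -0.036 to 0.046 for Gbp5, from -0.0063 to 0.14 for Ifit3 and from -0.13 to 0.021 for Isg15, and in lung at 1 day from -0.030 to 0.048 for Gbp5 and from -0.11 to 0.0057 for Oas1a. Depth limits Ifit1 most in lung, with 14 to 70 counts per library at 1 day.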
